A study of Mus musculus with 9 samples.

Results

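Muscle of mice that drank L-carnitine while eating a high-fat diet was compared with muscle of mice on a control diet. The 3 libraries labelled as high-fat diet with carnitine and the 3 labelled as control were compared, 6 of the 9 libraries of the study. All 19335 features of the deposited count sheet were used. All mice were wild-type C57BL/6J, a common inbred strain, and were 9 weeks old when they were assigned to groups. After 2 weeks of acclimatisation they were fed for 8 weeks and then fasted for 6 h before collection. The control diet held 10% of its energy as fat. The high-fat diet held 60%, and the carnitine group also received 100 mg/kg/day of L-carnitine in the drinking water. The groups therefore differ in the diet and in carnitine at once, and the effects of diet and carnitine cannot be told apart in this comparison. The 3 libraries of the high-fat diet without carnitine were part of the same fit, so that the spread was estimated from 9 libraries. Their values are given beside the results, and they share the control libraries with the comparison. The labels name neither the muscle nor the mouse behind each library, so the spread behind each p-value is that among libraries and may be technical.

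L-carnitine carries long-chain acyl groups across the inner mitochondrial membrane as acylcarnitines, so that they can be oxidised, and skeletal muscle holds most of the body's store. Muscle of fasted animals draws on fatty acids, and its transcripts for stress, glucocorticoid response and the circadian clock follow feeding and time of day. Many mouse genes have exons that overlap a gene of the other strand. Where the strand setting of a count is not known, reads of such a gene and of its antisense partner cannot be told apart. Every feature below is therefore given under the symbol in the sheet. For most changed features with a gene on the other strand, that gene is named beside it. In whole muscle, fewer cells of a type and less RNA per cell also cannot be told apart.

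The 6 libraries held 2319454 to 2598636 counts with carnitine and 2315985 to 2992084 in control. Most counts lay on features whose span overlaps a feature on the other strand, which make up 8389 of the 19335 features. Features without such a partner held 15.5%, 10.3% and 14.1% of the counts in control 1, 2 and 3, and 14.1%, 9.31% and 9.98% in carnitine 1, 2 and 3. The mean share was 13.3% ± 2.69 (SD, n = 3) in control and 11.1% ± 2.57 (SD, n = 3) with carnitine, and the groups overlap (exact permutation test, two-sided, p = 0.2; 3 against 3 cannot go below 0.1). Over all 9 libraries, Rabep2, A930016O22Rik and Ube2c held 16.6%, 13.1% and 9.47% of the counts. They lie opposite the muscle genes Atp2a1, Ckm and Tnnc2. Features opposite 19 fast fibre genes summed to 428553 to 532784 CPM in control and 385658 to 529565 CPM with carnitine. Under their own symbols those genes summed to 63531 to 93331 CPM and 47919 to 53091 CPM. The strand setting itself was not tested. Carnitine 1 stood apart from the other carnitine libraries. The chi-square per degree of freedom between replicates was 38.6 for carnitine 1 and 2, 26.4 for carnitine 1 and 3, and 8.26 for carnitine 2 and 3, against 9.79 to 18.8 between the control libraries, so no pair was a repeat of the same library. Markers of skeletal muscle were abundant in all 6 libraries. Their summed level was 12304 to 18865 CPM (counts scaled to a common TMM-normalised total) in control and 8801 to 12224 CPM with carnitine. The 7 adipocyte markers in the sheet summed to 45.4 to 62.6 CPM in control and to 130.1, 50.5 and 49 CPM in carnitine 1, 2 and 3. Adipoq and Plin1 among them had no count in the 6 libraries, and the 1 marker with enough counts to be tested had a log2 fold change of 0.82, with an unadjusted p below 0.05, and did not pass. Of the macrophage markers, Cd14 and Mrc1 had no count. With the strand setting unknown, a low count under a gene's own symbol does not show that its cells were few.

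**Figure D1:**
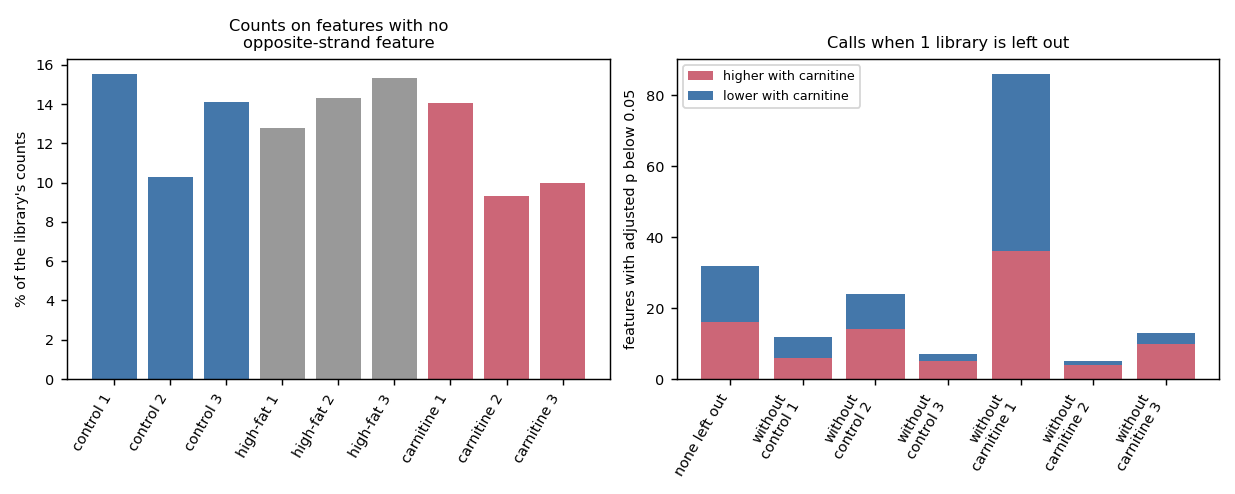
Left, the share of each library's counts on features without an opposite-strand feature, in %, with 1 bar per library; control 2 sits at 10.3%, within the range of the carnitine libraries. Right, the number of features with an adjusted p below 0.05 between carnitine and control, higher (red) and lower (blue), with no library left out and with each of the 6 libraries left out in turn; the number runs from 5 without carnitine 2 to 86 without carnitine 1.

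Of 7523 features tested, 32 differed between the carnitine and control libraries at an adjusted p below 0.05 (edgeR's quasi-likelihood test with Benjamini-Hochberg adjustment), which is 0.425% of the features tested. Of these, 16 rose (0.213%) and 16 fell (0.213%). In each of the 32 the libraries of the groups do not overlap, as in 6.45% of all features tested for carnitine above control and 7.18% for carnitine below it. In the same fit, which held all 9 libraries, 4 features changed between the high-fat diet alone and control (0.0532%). With the 6 libraries alone, 10 of the 32 kept their call. They were Slc25a25, Ddit4, Smtnl2, Gm11131, Oacyl, Gm41442, Sec24a, Gm19221, Gm17040 and Gm17041. By kind, 9 of the 16 that rose were non-coding or pseudogene features, against 1 of the 16 that fell. The share of such features among all 7523 was not counted, so no excess can be read from these numbers. A feature on the other strand overlapped 12 of the 16 that rose and 7 of the 16 that fell. Among features without an opposite-strand feature 0.428% changed, with 0.132% higher and 0.297% lower, and among those with such a feature 0.423%, with 0.267% higher and 0.156% lower. The number of changed features was 12, 24 and 7 without control 1, 2 and 3, and 86, 5 and 13 without carnitine 1, 2 and 3. Of the 32, 5 kept their call in all 6 of these fits, and each other call held in 0 to 3 of them. Counts summed over each chain of overlapping features on opposite strands, called a locus below, changed in 34 of 5784 loci (0.588%), with 15 higher (0.259%) and 19 lower (0.328%). With scaling factors only from features without a partner on the other strand, the median log2 fold change of all features moved from -0.0047 to 0.21. Then 12 features rose and 2 fell, the 2 being Slc25a25 and Ddit4.

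**Figure D2:**
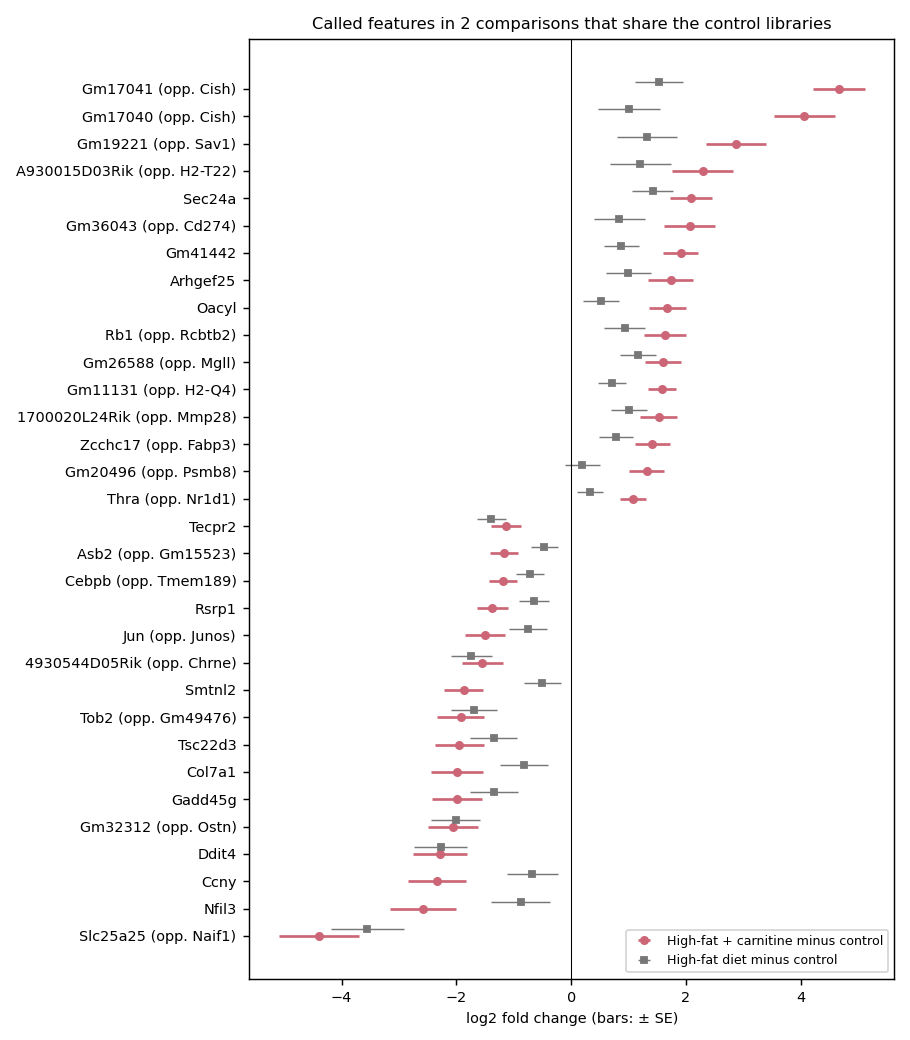
Log2 fold change of the 32 changed features, carnitine on the high-fat diet minus control (red circles) and high-fat diet minus control (grey squares), each with its SE; the gene in brackets overlaps the feature on the other strand. The values run from -4.39 for Slc25a25 to 4.67 for Gm17041, and both comparisons use the same 3 control libraries.

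The largest rise lay at the Cish locus. Cish encodes a cytokine-inducible SH2 protein that dampens signalling through STAT5 and is itself a classic target of STAT5. Gm17041 (chr9:107177579-107179037, minus strand, GRCm39) is a non-coding feature on the other strand that shares 479 bp of exon with Cish. It was counted at 12.4, 14.2 and 15.5 CPM in control 1, 2 and 3, at 27.3, 60.6 and 33.4 CPM in the high-fat libraries, and at 142, 537 and 394 CPM in carnitine 1, 2 and 3. Every carnitine library exceeded every control library and every high-fat library, and carnitine 1 was the lowest of the 3. The mean was 14 ± 1.53 CPM in control and 358 ± 200.1 CPM with carnitine (SD, n = 3 each), a 25.4-fold rise (log2 fold change 4.67, SE 0.45, at an adjusted p of 9.16e-05). The high-fat diet alone gave a log2 fold change of 1.54 (SE 0.42, at an adjusted p of 0.223) against the same controls.

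Gm17040, a neighbouring transcribed pseudogene that shares 261 bp of exon with Cish (chr9:107169634-107174391, minus strand), showed the same order of group means. Its level was 3.65, 3.43 and 5.92 CPM in control, 7.45, 13.2 and 5.57 CPM on the high-fat diet and 24.6, 132 and 65.9 CPM with carnitine, 16.7-fold higher with carnitine than in control (log2 fold change 4.06, SE 0.53, at an adjusted p of 0.000723). Cish itself stayed below the filter on low counts, with 0, 0 and 9 counts in the control libraries and 6, 24 and 10 counts in the carnitine libraries. Summed over the 3 features of the locus, the log2 fold change was 4.48 (SE 0.51, adjusted p = 0.00343). Gm17041 and Gm17040 kept an adjusted p below 0.05 whichever of the 6 libraries was left out, with largest values of 0.0091 and 0.0182. The 7 tested genes of the SOCS family and STAT5 targets all had a negative log2 fold change, with a median of -0.32, and 0 passed. When scaled on features without a partner, 5 were negative and 2 positive, with a median of -0.14. Of the 4 tested features opposite genes of that list, only the 2 Cish features rose.

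The promoter of Cish is shown with those of Psmb8 and H2-T22, genes that lie opposite other features that rose, because they hold matches to motifs of cytokine signalling. The sequences are RefSeq's, from GRCm38.p6, a build other than that of the count sheet, and run from 250 bases before to 50 bases after the annotated start. Capitals mark TTCNNNGAA, the STAT motif, in Cish and Psmb8. In H2-T22 they mark the interferon response motif, a GAAA repeat parted by any pair of bases, read here from the other strand; this motif was added after the values had been seen. The Cish window is chr9:107296409-107296708, plus strand, that of Psmb8 chr17:34197945-34198244, plus strand, and that of H2-T22 chr17:36042693-36042992, minus strand.
Cish promoter: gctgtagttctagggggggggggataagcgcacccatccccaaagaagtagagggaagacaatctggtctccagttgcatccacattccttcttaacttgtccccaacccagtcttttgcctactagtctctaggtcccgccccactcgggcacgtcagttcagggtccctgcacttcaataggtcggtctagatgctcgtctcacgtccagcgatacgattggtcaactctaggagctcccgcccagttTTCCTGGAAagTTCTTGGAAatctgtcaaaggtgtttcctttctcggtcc
Psmb8 promoter: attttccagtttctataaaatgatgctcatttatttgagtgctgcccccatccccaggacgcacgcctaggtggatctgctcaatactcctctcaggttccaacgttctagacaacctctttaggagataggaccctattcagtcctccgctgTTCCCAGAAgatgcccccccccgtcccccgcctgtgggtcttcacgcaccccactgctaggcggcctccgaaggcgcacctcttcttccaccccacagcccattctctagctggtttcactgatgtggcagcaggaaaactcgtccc
H2-T22 promoter: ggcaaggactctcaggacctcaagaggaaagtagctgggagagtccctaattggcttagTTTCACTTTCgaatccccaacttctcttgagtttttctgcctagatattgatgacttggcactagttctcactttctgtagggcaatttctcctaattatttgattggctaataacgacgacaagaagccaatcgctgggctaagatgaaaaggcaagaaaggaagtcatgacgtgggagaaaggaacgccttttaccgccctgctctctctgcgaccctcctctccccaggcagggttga
The Cish window holds 2 STAT matches, which start at bases 251 and 262 of the window and lie in tandem just past the annotated start. A match on either strand was present in 8.30% of the 32851 mouse promoter windows, and 2 or more matches in 0.457%. The Psmb8 window holds 1 STAT match, at base 154, and the H2-T22 window 1 interferon response match, at base 60, a motif found in 3.44% of all windows. None of the other searched motifs occurs in these 3 windows. The windows of H2-Q4 and Cd274, which also lie opposite features that rose, hold no match to any searched motif. Of the 54 changed genes and opposite genes that were looked up, 36 had a window. Both strands of their 49 windows were searched; the STAT motif was found in 3 (Cish, Psmb8 and Tsc22d3), the E-box CACGTG in 3, the D-box TTANGTAA in 1 (Slc25a25), the nuclear receptor motif AGGTCA in 5, and the steroid receptor motif ACANNNTGT in 2. The interferon response motif was in 3 of the 49, those of H2-T22, H2-T23 and Gm32312, and Gm32312 is a feature that fell. All promoters held the E-box, D-box, nuclear receptor and steroid receptor motifs in 7.15%, 2.32%, 16.3% and 6.85% of windows. A match is a run of letters and says nothing of binding.

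**Figure D3:**
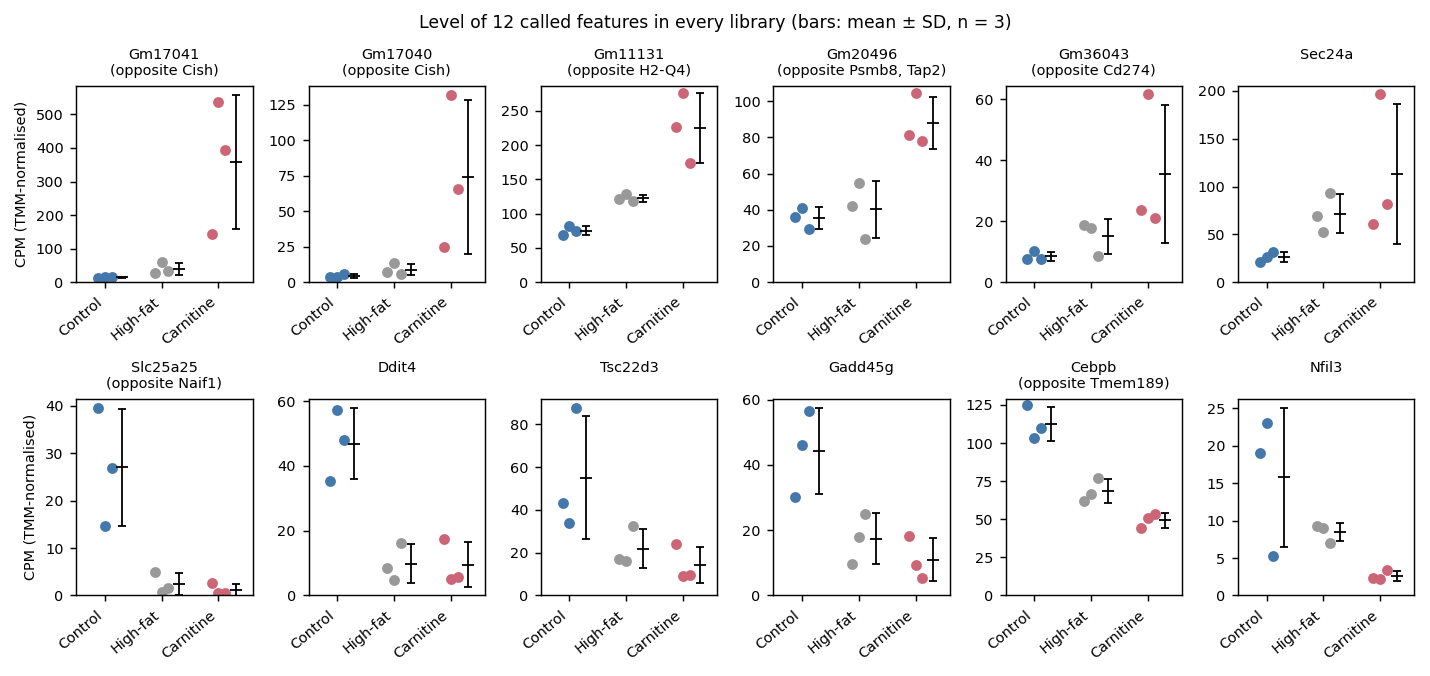
TMM-normalised CPM of 12 changed features in each of the 9 libraries (points), with the mean and SD of each group (n = 3, black). In the top row all carnitine points lie above all control points, up to 537 CPM for Gm17041; in the bottom row all carnitine points lie below all control points.

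Of the features that rose, 3 lie opposite genes on a list of antigen presentation and interferon response. That list was chosen with earlier results of these data known. MHC class I molecules carry peptides to the cell surface for T cells, the immunoproteasome cuts those peptides, the TAP transporter moves them into the endoplasmic reticulum, and interferons raise the whole set. Of 9 tested features opposite members of this list, 3 rose, 8 had a positive log2 fold change, and 7 had a positive value with an unadjusted p below 0.05, as did 5.35% of all features with an opposite-strand feature. The median was 1.29, against 0.09 over all such features. The number that rose was 1 with library totals alone, 1 with limma-voom, 3 without carnitine 1, 2 (Gm11131 and Gm17334) without control 2 and 1 without any other library. On the high-fat diet alone the median of these 9 was 0.51. None of the 9 members tested under their own symbols passed edgeR's test, DESeq2 or limma-voom, and none had an unadjusted p below 0.05 (8 positive, median 0.46).

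Gm11131 (chr17:35595997-35599268, minus strand) shares 496 bp of exon with H2-Q4, a class I gene. It stood at 68.6, 81.7 and 75 CPM in control, 121, 128 and 118 CPM on the high-fat diet and 227, 275 and 174 CPM with carnitine. The 3 groups are separate, in that order. Its rise over control was 3.0-fold (log2 fold change 1.59, SE 0.24, at an adjusted p of 0.00135), and it kept an adjusted p of at most 0.0275 whichever library was left out. H2-Q4 under its own symbol had 18, 5 and 17 counts in control and 38, 11 and 10 with carnitine, with overlapping groups (log2 fold change 0.70, SE 0.62, at an adjusted p of 0.763).

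Gm20496 (chr17:34418290-34424423, minus strand) shares 498 bp of exon with Psmb8, an immunoproteasome subunit, and 165 bp with Tap2, a subunit of the peptide transporter. Its level was 36.1, 41.1 and 29.3 CPM in control, 41.8, 55 and 23.8 CPM on the high-fat diet and 81.5, 104 and 77.9 CPM with carnitine. The high-fat libraries overlap the control libraries here and the carnitine libraries do not (log2 fold change 1.31, SE 0.30, at an adjusted p of 0.0462). A930015D03Rik shares 1003 bp of exon with H2-T22 and spans H2-T23 and H2-T24, all of the non-classical class I group. It rose from 0.73, 5.38 and 7.89 CPM to 23.5, 28.7 and 16.8 CPM (log2 fold change 2.29, SE 0.53, at an adjusted p of 0.0456), while its locus as a whole gave 1.35 (SE 0.38, adjusted p = 0.136). Both calls held without carnitine 1 and were lost without any other of the 6 libraries.

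Further features of this set did not pass the test. Gm17334, opposite Irf1, a transcription factor of the interferon response, stood at 15.7, 31.8 and 14.5 CPM in control and 55.4, 49.7 and 45.2 CPM with carnitine (log2 fold change 1.29, adjusted p = 0.108). Gm19412, opposite Tapbp, which loads peptides onto class I molecules, stood at 75.2, 92.5 and 76.9 CPM and 130.1, 151 and 133 CPM (log2 fold change 0.76, adjusted p = 0.218). The groups do not overlap in either feature. Gm16156, opposite the immunoproteasome subunit Psmb10, was the member with a negative value, -0.08.

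Gm36043 (chr19:29350817-29361871, minus strand) shares 511 bp of exon with Cd274, the gene of the immune checkpoint ligand PD-L1, which is not on that list. The feature was counted at 7.67, 10.3 and 7.56 CPM in control and 23.5, 61.7 and 21.2 CPM with carnitine. Carnitine 2 was far above the other carnitine libraries, and the lowest carnitine library still exceeded the highest control library (log2 fold change 2.06, SE 0.45, at an adjusted p of 0.0342). The call held without carnitine 1 and without carnitine 3 and was lost without carnitine 2 or any control library. Cd274 under its own symbol had at most 4 counts in any of these 6 libraries. Markers of other cell types had low counts under their own symbols. With the strand setting unknown, this does not show that such cells were few. The summed T and B lymphocyte markers, 2 of the 7 listed, ran from 1.46 to 15.1 CPM in control and from 0 to 3.85 CPM with carnitine, the macrophage markers from 71.2 to 127 CPM and from 111 to 115 CPM, and the endothelial markers from 42.7 to 51.1 CPM and from 40.7 to 165 CPM. Their part in these results was not tested.

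Both Zcchc17 and Gm26588, which rose, lie opposite genes of lipid use. Zcchc17, which encodes a zinc-knuckle protein, shares 81 bp of exon with Fabp3, the fatty acid binding protein of heart and muscle. Its level was 165, 409 and 249 CPM in control, 481, 600.4 and 328 CPM on the high-fat diet and 985, 659 and 538 CPM with carnitine, a 2.66-fold rise over control (log2 fold change 1.41, SE 0.31, at an adjusted p of 0.041). Control 2 came nearest to the carnitine libraries. Fabp3 under its own symbol had 284, 125 and 239 counts in control and 403, 169 and 126 with carnitine, and did not pass (log2 fold change 0.23, adjusted p = 0.877).

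Gm26588 shares 167 bp of exon with Mgll, the lipase that splits monoacylglycerol. It was counted at 12.4, 21 and 19.4 CPM in control, 36.2, 45.5 and 36.8 CPM on the high-fat diet and 59.5, 59.1 and 40.9 CPM with carnitine. All libraries of both high-fat groups lie above control, and carnitine 3 lies within the high-fat range (log2 fold change 1.60, SE 0.32, at an adjusted p of 0.0198). Mgll itself had 9, 14 and 23 counts in control and 34, 12 and 17 with carnitine (log2 fold change 0.57, adjusted p = 0.801).

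Thra, the gene of thyroid hormone receptor alpha, rose from 349, 333 and 257 CPM in control to 549, 751 and 690.4 CPM with carnitine (log2 fold change 1.08, SE 0.23, at an adjusted p of 0.030). The high-fat libraries, at 412, 387 and 379.9 CPM, lie between the 2 groups. The 3′ end of Thra overlaps Nr1d1, the gene of the clock repressor REV-ERB alpha, by 263 bp of exon. Nr1d1 under its own symbol had 378, 378 and 436 counts in control and 409, 409 and 351 with carnitine, with a log2 fold change of 0.10 (SE 0.23). The sum over the locus gave 0.81 (SE 0.20, adjusted p = 0.0693). The Zcchc17 call held without control 2 or carnitine 3, and the Thra call without control 2 or carnitine 1; each was lost without any other library. Gm26588 also kept its call without control 2 and without either carnitine 1 or 3.

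Sec24a was the coding gene with the largest rise. It encodes a subunit of the COPII coat that selects cargo for export from the endoplasmic reticulum, and no feature overlaps it on the other strand. Its level was 21.5, 26.4 and 31.9 CPM in control, 69.5, 52.7 and 92.8 CPM on the high-fat diet and 61.1, 197 and 82.2 CPM with carnitine. Both high-fat groups lie above control, and carnitine 2 lies above every other library (4.24-fold, log2 fold change 2.09, SE 0.36, at an adjusted p of 0.00768). Sar1b, the COPII GTPase whose feature begins 53 bp from that of Sec24a on the other strand, gave a log2 fold change of 0.02 (SE 0.40). Of the 13 COPII and export genes tested, 1 rose, 6 had a positive and 7 a negative value, and the median was -0.25 (-0.50 without carnitine 1 and 0.02 without control 3). The Sec24a call held without control 3, carnitine 1 or carnitine 3.

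Rb1, the retinoblastoma tumour suppressor, was counted at 10.6, 27.4 and 10.9 CPM in control and 51.9, 46.3 and 51 CPM with carnitine (log2 fold change 1.63, SE 0.36, at an adjusted p of 0.0402). It shares exon sequence on the other strand with Rcbtb2 (488 bp) and with Lpar6, a lysophosphatidic acid receptor that lies inside it (408 bp), and the 5 features of that locus together gave 0.55 (SE 0.26, adjusted p = 0.447). Arhgef25, a guanine nucleotide exchange factor, went from 10.2, 14.2 and 8.55 CPM to 40.2, 36.4 and 32.2 CPM (log2 fold change 1.73, SE 0.39, at an adjusted p of 0.0413). Oacyl went from 36.9, 51.9 and 39.5 CPM to 102, 158 and 149 CPM (log2 fold change 1.68, SE 0.32, at an adjusted p of 0.0191). Control 2 was the highest control library in all 3 genes, and the carnitine libraries lie above it. On the high-fat diet alone the log2 fold changes of Rb1, Arhgef25 and Oacyl were 0.93, 0.99 and 0.52, with SEs of 0.36, 0.39 and 0.32.

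Gm41442 (chr16:31052408-31067131, plus strand), a non-coding feature, rose as well. It has no partner on the other strand, and its nearest feature there, Ppp1r2, lies 3224 bp past its 3′ end. It stood at 26.6, 20.6 and 21.7 CPM in control, 41.8, 33.2 and 52 CPM on the high-fat diet and 108, 57.4 and 92.8 CPM with carnitine. The 3 groups are separate (log2 fold change 1.90, SE 0.31, at an adjusted p of 0.00219), and the call held whichever library was left out, with an adjusted p of at most 0.0379. 1700020L24Rik, which shares 466 bp of exon with the matrix metalloproteinase gene Mmp28, went from 22.3, 24 and 11.5 CPM to 65.2, 50.1 and 49.5 CPM (log2 fold change 1.52, SE 0.32, at an adjusted p of 0.030). Gm19221, which overlaps the span of Sav1, a scaffold of the Hippo pathway, went from 1.83, 3.92 and 3.62 CPM to 13.3, 37.3 and 18.3 CPM (log2 fold change 2.87, SE 0.52, at an adjusted p of 0.00768). Its locus of 10 features did not pass, at 0.61 (SE 0.25, adjusted p = 0.363).

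The largest fall was that of Slc25a25, a calcium-regulated carrier that moves ATP-Mg and phosphate across the inner mitochondrial membrane (chr2:32304499-32341457, minus strand). The feature was counted at 39.4, 14.7 and 27 CPM in control, 4.96, 0.696 and 1.49 CPM on the high-fat diet and 2.65, 0.428 and 0.481 CPM with carnitine. In counts, the carnitine libraries held 7, 1 and 1, against 108, 30 and 82 in control, so the level with carnitine rests on few reads. Both high-fat groups lie below every control library. The level with carnitine was 21-fold lower than in control (log2 fold change -4.39, SE 0.70, at an adjusted p of 0.00219), and the high-fat diet alone gave -3.55 (SE 0.64, adjusted p = 0.0258). The call held whichever library was left out, with an adjusted p of at most 0.0336. Limma-voom gave an adjusted p of 0.205. Naif1, on the other strand with 379 bp of shared exon, had 13, 3 and 15 counts in control and 3, 26 and 5 with carnitine and did not pass (adjusted p = 0.925). None of the other 18 mitochondrial carriers tested passed; over all 19 the median was -0.11 and ran from -0.47 without carnitine 1 to 0.16 without carnitine 2.

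Of the genes that fell, 4 are on a list of glucocorticoid response genes, which was chosen with earlier results of these data known. Glucocorticoids rise in fasting and act on muscle through a nuclear receptor that switches on genes which curb growth and inflammation. Of 19 such genes tested, 4 fell (Ddit4, Gadd45g, Tsc22d3 and Cebpb) and none rose, 13 had a negative and 6 a positive log2 fold change, and 9 had a negative value with an unadjusted p below 0.05 against 1 with a positive value (6.03% and 4.33% of all features). The median was -0.71 and stayed negative under every scaling tried (-0.75 to -0.46), against -0.0047 over all features; the median on the high-fat diet alone was -0.13. The median was -0.44 without control 1. The number that fell was 5 without carnitine 1, 2 without control 1 or control 2, and 0 without control 3, carnitine 2 or carnitine 3. It was 1 with library totals alone, 1 when scaled on features without a partner, and 0 with the share of counts on such features as a covariate. The 13 tested genes of this list without a partner had a median of -0.26, with 8 negative and 5 positive values. Over all features without a partner the median was -0.19. Of those 13 genes, 6 had a negative and 0 a positive value with an unadjusted p below 0.05, against 8.64% and 2.83% of that class.

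Ddit4 encodes REDD1, an inhibitor of mTORC1. It was counted at 35.4, 57.3 and 48 CPM in control, 8.51, 4.64 and 16.3 CPM on the high-fat diet and 17.4, 5.14 and 5.77 CPM with carnitine. Both high-fat groups lie below control and overlap each other (log2 fold change -2.28, SE 0.47, at an adjusted p of 0.030). The high-fat diet alone gave a log2 fold change of -2.27 (SE 0.46, at an adjusted p of 0.0563). Tsc22d3, which encodes the glucocorticoid-induced leucine zipper GILZ, went from 43.4, 33.8 and 87.8 CPM in control to 23.9, 8.99 and 9.62 CPM with carnitine (log2 fold change -1.95, SE 0.43, at an adjusted p of 0.041). Control 3 was the highest library and carnitine 1 the highest of its group.

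Gadd45g, of the growth arrest and DNA damage family, went from 30.3, 46 and 56.6 CPM to 18.2, 9.42 and 5.29 CPM (log2 fold change -1.99, SE 0.43, at an adjusted p of 0.0342). Carnitine 1 was again the highest carnitine library, and no feature overlaps Ddit4, Tsc22d3 or Gadd45g on the other strand. Cebpb, a bZIP transcription factor, was counted at 125, 103 and 109.8 CPM in control, 61.7, 66.8 and 76.9 CPM on the high-fat diet and 44, 51 and 53.4 CPM with carnitine (log2 fold change -1.19, SE 0.25, at an adjusted p of 0.030). The 3 groups are separate, with carnitine lowest. Cebpb shares 312 bp of exon with Tmem189, which held 1603, 2293 and 2271 counts in control and 1248, 1187 and 1333 with carnitine, and the sum over its locus gave -0.67 (SE 0.22, adjusted p = 0.222).

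Jun, a subunit of the AP-1 transcription factor that is switched on within minutes of a stimulus, fell as well. Its level was 86.1, 45 and 62.8 CPM in control and 14, 29.5 and 25 CPM with carnitine (log2 fold change -1.51, SE 0.35, at an adjusted p of 0.0452). Junos, which shares 232 bp of exon with it on the other strand, stood at 343, 348 and 303 CPM and 121, 175 and 239.9 CPM, and did not pass (log2 fold change -0.90, adjusted p = 0.181). Libraries of the groups do not overlap in either feature, and the sum over the locus gave -0.99 (SE 0.25, adjusted p = 0.0705). The Jun call held without control 2 and was lost without any other library. Of the 11 immediate early genes tested, 1 fell and none rose, 7 had a negative value, and the median was -0.69, with -0.66 on the high-fat diet alone. That median was -0.21 without control 1, -0.31 without carnitine 1 and -0.35, with no call, when scaled on features without a partner. Among those that did not pass, Klf2, an endothelial and T cell transcription factor, stood at 22.6, 10.3 and 7.23 CPM in control and 1.14, 3.85 and 0 CPM with carnitine (adjusted p = 0.191), and the orphan nuclear receptor Nr4a1 at 32.9, 15.2 and 21.4 CPM and 9.86, 3.43 and 8.65 CPM (adjusted p = 0.191).

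Nfil3, a repressor that binds the D-box of clock output genes, fell from 19, 23 and 5.26 CPM in control to 2.28, 2.14 and 3.37 CPM with carnitine (log2 fold change -2.58, SE 0.58, at an adjusted p of 0.041). Control 3 lay well below the other controls and close to the carnitine range, and the high-fat libraries, at 9.22, 9.05 and 7.06 CPM, lie above all carnitine libraries. The call held without control 3 or carnitine 1, and limma-voom gave an adjusted p of 0.358. Of the 15 clock genes and outputs tested, 1 fell and none rose, and the median was -0.06, from -0.18 to 0.04 with 1 library left out. Per1, a clock repressor, stood at 30.3, 14.2 and 21 CPM and 18.6, 8.14 and 3.37 CPM and did not pass (adjusted p = 0.448).

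Smtnl2, a smoothelin-like actin-associated protein, was counted at 86.1, 48 and 77.6 CPM in control, 39.4, 37.8 and 73.2 CPM on the high-fat diet and 19.7, 13.3 and 25 CPM with carnitine (log2 fold change -1.87, SE 0.34, at an adjusted p of 0.00768). All carnitine libraries lie below all others, and the high-fat libraries overlap control. Asb2, a ubiquitin ligase subunit of muscle, went from 213, 139 and 208 CPM to 91.8, 74.5 and 84.1 CPM (log2 fold change -1.16, SE 0.24, at an adjusted p of 0.030), and Gm15523, whose span overlaps it on the other strand, did not pass (log2 fold change -0.98, adjusted p = 0.458).

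Gm32312 shares 184 bp of exon with Ostn, the gene of musclin, a peptide secreted by muscle. It stood at 30.3, 132 and 115 CPM in control, 17, 18.8 and 33.1 CPM on the high-fat diet and 15.9, 26.6 and 24 CPM with carnitine (log2 fold change -2.06, SE 0.43, at an adjusted p of 0.041). Control 1 was the lowest control library and lies just above the carnitine libraries. Ostn under its own symbol had at most 4 counts in any of these libraries. 4930544D05Rik, whose span overlaps Chrne, the epsilon subunit of the acetylcholine receptor, without a shared exon in the reference annotation, went from 61.3, 117 and 67.1 CPM to 29.6, 35.5 and 18.3 CPM (log2 fold change -1.55, SE 0.36, at an adjusted p of 0.0456). The calls of Gm32312 and 4930544D05Rik were lost in limma-voom. So were those of Slc25a25, Nfil3, Jun, Ccny, Col7a1, Gm20496, Arhgef25, Gm36043, A930015D03Rik and Gm19221. Markers of neuromuscular and myotendinous nuclei summed to 8.40 to 20.1 CPM in control and 3.03 to 8.99 CPM with carnitine, and their part in these results was not tested.

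The remaining features that fell were Tob2, of a family of anti-proliferative proteins, Tecpr2, which takes part in autophagy, Rsrp1, the cyclin gene Ccny and Col7a1, the collagen of anchoring fibrils. Tecpr2 was counted at 263, 370.0 and 254 CPM in control, 116, 100.3 and 122 CPM on the high-fat diet and 88, 162 and 153 CPM with carnitine (log2 fold change -1.14, SE 0.26, at an adjusted p of 0.041), and the high-fat diet alone gave -1.39 (SE 0.26, adjusted p = 0.0258). Its call was lost whichever of the 6 libraries was left out. Tob2 went from 37.2, 31.3 and 27 CPM to 9.86, 6.0 and 9.13 CPM (log2 fold change -1.93, SE 0.41, at an adjusted p of 0.0329), and Rsrp1 from 168, 107 and 135 CPM to 59.2, 63.8 and 35.6 CPM (log2 fold change -1.37, SE 0.27, at an adjusted p of 0.0198). In both, carnitine lies clear of control. Ccny went from 12.4, 16.2 and 17.4 CPM to 2.28, 3.85 and 2.88 CPM (log2 fold change -2.34, SE 0.51, at an adjusted p of 0.0342) and Col7a1 from 29.2, 13.7 and 25.6 CPM to 6.45, 6.85 and 3.85 CPM (log2 fold change -1.99, SE 0.46, at an adjusted p of 0.0452). The Ccny, Col7a1 and Tob2 calls held without carnitine 1, and that of Col7a1 also without control 2.

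No gene of carnitine handling passed edgeR's test, DESeq2 or limma-voom, and none had an unadjusted p below 0.05 with all libraries. Of 16 such genes in the sheet, 6 had enough counts to be tested, 3 with a positive and 3 with a negative log2 fold change, and their median was -0.09 (0.10 when scaled on features without a partner). Without carnitine 1 the median was -0.54, with 4 of the 6 negative and 2 at an unadjusted p below 0.05, and over the other libraries left out it ran from -0.20 to 0.12. Crat, which moves acetyl groups between carnitine and coenzyme A, stood at 71.5, 42.1 and 93.4 CPM in control and 56.9, 39 and 51 CPM with carnitine (log2 fold change -0.50, SE 0.29, at an adjusted p of 0.576). Cpt2, which releases acyl groups from carnitine inside mitochondria, stood at 9.49, 6.36 and 4.93 CPM and 9.86, 1.28 and 4.81 CPM (log2 fold change -0.36, SE 0.62). Slc25a20, the carnitine and acylcarnitine carrier, stood at 6.21, 3.43 and 7.89 CPM and 6.45, 5.57 and 2.88 CPM (log2 fold change -0.24, SE 0.60). The groups overlap in all 3 genes, and Cpt2 and Slc25a20 had few reads.

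Genes of fatty acid oxidation did not pass either. Among 21 tested, 14 had a positive value and the median was 0.20, with 0.29 on the high-fat diet alone; 3 had an unadjusted p below 0.05 in edgeR, against 10.4% of all features, and none passed in DESeq2 or limma-voom. The direction rested on carnitine 1. Without it 16 of the 21 were negative and the median was -0.23, and without control 2 the median was 0.026. Acadl, a long-chain acyl-CoA dehydrogenase, stood at 24.1, 24 and 38.8 CPM in control and 94.8, 48.8 and 25.5 CPM with carnitine (log2 fold change 0.96, SE 0.37, at an adjusted p of 0.332). Acadvl, its very-long-chain relative, stood at 63.9, 36.7 and 49.7 CPM and 187, 70.2 and 46.6 CPM (log2 fold change 1.02, adjusted p = 0.377). In both, carnitine 1 was far above carnitine 2 and 3, and carnitine 3 lay among the controls. The 19 PPAR target genes tested had a median of 0.16, with 0.73 on the high-fat diet alone, and none passed in edgeR, DESeq2 or limma-voom (2 with an unadjusted p below 0.05 in edgeR, near the share of all features). Without carnitine 1 their median was -0.47, with 15 of 19 negative, and without control 2 it was -0.01. Carnitine 1 had the highest adipocyte sum and was also highest in other sums. Slow fibre genes summed to 1923, 362 and 509 CPM in carnitine 1, 2 and 3. Endothelial markers summed to 165, 40.7 and 41.8 CPM, and smooth muscle and pericyte markers to 155, 67.7 and 66.8 CPM. The part of these differences in the lists was not tested.

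No gene of the fast or slow contractile apparatus passed the test. All 19 fast fibre genes tested had a negative log2 fold change, with a median of -0.65, and 10 had an unadjusted p below 0.05 (6.03% of all features with a negative value). When scaled on features without a partner, 18 of the 19 were negative, the median was -0.45 and 0 had an unadjusted p below 0.05. DESeq2 called 3 of them lower and limma-voom none, and edgeR called 3 lower without carnitine 1. The 11 slow fibre genes tested had a median of 0.31, with 7 positive and 4 negative values; without carnitine 1 the median was -0.55, with 7 negative, and without control 1, control 3 or carnitine 2 it was 0.03, 0.06 and 0.10. Myh4, the fastest myosin heavy chain, stood at 42727, 23551 and 34584 CPM in control and 14335, 19489 and 21109 CPM with carnitine (log2 fold change -0.88, SE 0.25, at an adjusted p of 0.157). Ckm, the muscle creatine kinase, stood at 7692, 5097 and 6198 CPM and 3414, 3312 and 3861 CPM (log2 fold change -0.84, SE 0.22, at an adjusted p of 0.11). The groups do not overlap in Myh4 or Ckm, yet the 8 features opposite fast fibre genes, among them the 3 features with the most counts of all, had a median of -0.02. Among them, A930016O22Rik, opposite Ckm, gave -0.02 (SE 0.21), and Rabep2, opposite the calcium pump gene Atp2a1, gave -0.03 (SE 0.22). Over all features, the median was -0.19 without an opposite-strand feature and 0.09 with such a feature. Among features without one, 8.64% had a negative and 2.83% a positive value with an unadjusted p below 0.05, and among those with one 4.28% and 5.35%.

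Further lists also had lower medians for their members than for the features opposite them. Among 22 genes of calcium handling 21 had a negative value, with a median of -0.57, against -0.02 for the 8 features opposite them. For 23 genes of glycolysis and glycogen the counts were 19 negative and 4 positive, with a median of -0.45, against 0.06 for the 5 opposite features. For cytosolic ribosomal proteins 68 of 74 were negative, with a median of -0.50, against 0.20 for the 18 opposite features. No member of these lists passed edgeR's test. In the order given, 10, 9 and 17 members had a negative value with an unadjusted p below 0.05, and 0, 1 and 2 a positive one, against 6.03% and 4.33% of all features. When scaled on features without a partner, 2, 4 and 5 members had an unadjusted p below 0.05 in either direction, against 9.66% of all features. DESeq2 called 0, 2 and 2 of them lower and 1 ribosomal protein gene higher, and limma-voom called 1 gene of glycolysis and glycogen lower. Without carnitine 1, edgeR called 2, 5 and 1 lower, and without carnitine 2 the glycolysis median was -0.28. Gapdh came nearest, at 89.4, 88.1 and 90.8 CPM in control and 42.8, 35.1 and 50.5 CPM with carnitine (log2 fold change -1.06, SE 0.26, at an adjusted p of 0.0627), with overlap of exons with Iffo1. When scaled on features without a partner the medians of the members were -0.33, -0.27 and -0.28, in the order given. The mean share of counts on features without a partner, given above, was also lower with carnitine, and its part in these lists was not tested.

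**Figure D4:**
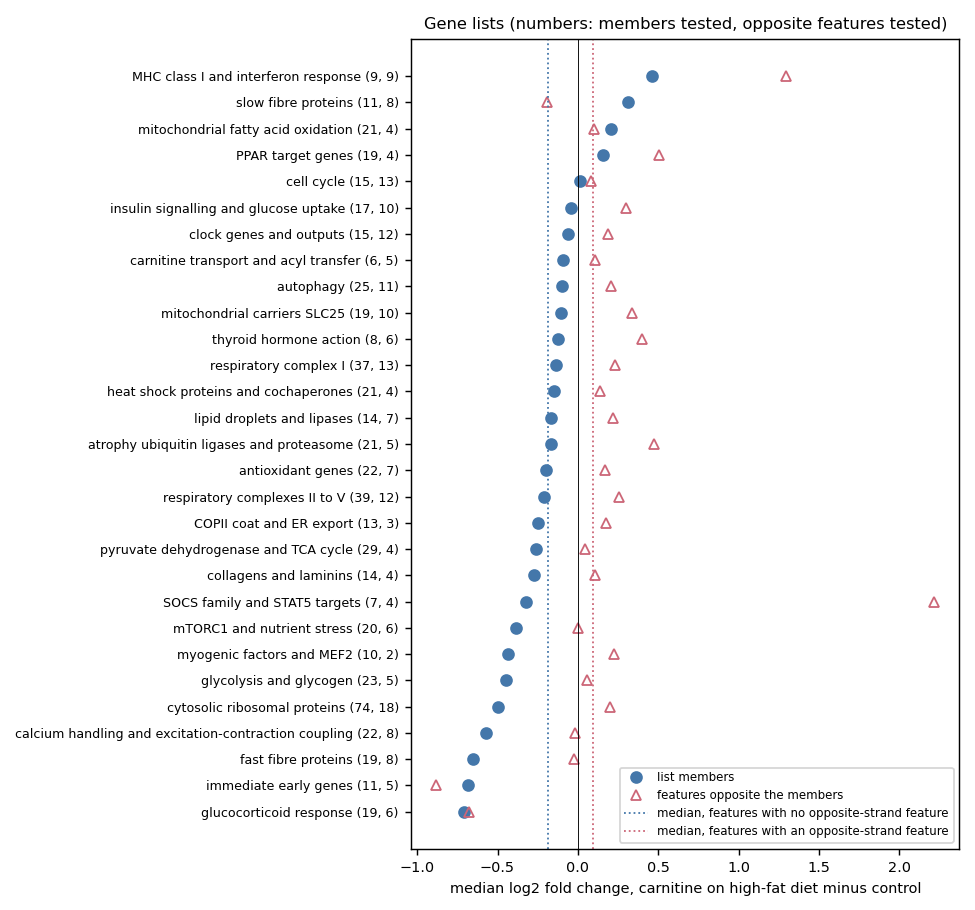
Median log2 fold change, carnitine on the high-fat diet minus control, of the tested members of 29 gene lists (blue circles) and of the features opposite them (red triangles), with the number of each in brackets and the medians of all features of each class as dotted lines. Features opposite genes of MHC class I and interferon response (1.29) and of the SOCS family (2.22, which includes both Cish features) lie farthest to the right, and among the circles the glucocorticoid response list (-0.71) lies farthest to the left.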

How the data were processed

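Per the labels' protocols, libraries of muscle mRNA kept the strand (a stranded kit). The submitters' processing notes name HTSeq 0.13.5, HISAT2 2.2.0, Bowtie2 2.4.2, Trim Galore 0.6.4 and edgeR, and the builds GRCm39, GRCh38 and Rnor_6.0, giving no role to any. How strand was set in counting is not stated in them. The authors deposited raw counts per gene for 19335 features with GRCm39 coordinates. They also deposited FPKM values, which were used only to check that FPKM and counts differ by a factor per library.

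Counts of all 9 libraries were fitted together in edgeR 4.0.16 (R 4.3.3; TMM, default expression filter, robust quasi-likelihood F-test, no covariate). The contrast was carnitine minus control, with Benjamini-Hochberg adjustment over 7523 features and a threshold of 0.05. The SE was obtained as log2 fold change over root F; levels are TMM-normalised CPM. Features on opposite strands were paired by overlap of spans in the sheet (8389 of 19335); shared exons come from GENCODE M21, another build, by gene only. A locus sum adds all features in a chain of such overlaps. A total of 114 features has no symbol.

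The text names every changed feature and, for most of those with a partner, the feature opposite it. It also names up to 4 members by unadjusted p of some of the 29 gene lists. Members and lists were chosen with earlier results of these data known. Lists are described without a test. Alternatives were other scalings, filters, DESeq2 1.42.0, limma-voom (limma 3.58.1), each library left out, a replicate block, a covariate and locus sums. A count of 0 allows 3 counts, or 1.00 to 1.30 CPM in these 6 libraries, covering counting error only. The procedure was tested on simulated data. It recovered 14 of 67 features given a log2 fold change of 1 in either direction. At 2 it recovered 47 of 67 and at 3 it recovered 60 of 66, with 5 false calls in all. A feature that did not pass is therefore not shown to be unchanged.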

Additional observations from a re-analysis of the deposited data

How the results depend on the processing

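Of 32 changed features, 16 higher and 16 lower, the number was 18 (10 higher, 8 lower) with library totals alone, 14 (12 and 2) with TMM factors from features with no opposite-strand feature, 60 (25 and 35) with no filter, 69 (29 and 40) with DESeq2, 21 (11 and 10) with limma-voom, 10 (7 and 3) with the 6 libraries alone, 16 (8 and 8) with the share of counts on features with no opposite-strand feature as a covariate, 8 (4 and 4) for features with no opposite-strand feature alone, and 12 (7 and 5) for features with an opposite-strand feature alone, chosen after seeing the data. RLE gave 33, a CPM filter 42 and locus sums 34. Leaving out 1 library gave 5 to 86 in all, 4 to 36 higher and 1 to 50 lower; 28 of the 32 remained called without carnitine 1 and 5 without carnitine 2. The replicate block gave 31, of which 27 were among the 32. Deviations of control and carnitine libraries of the same number had correlations of -0.02 to 0.14, the highest for control 2 and carnitine 2. These few correlations cannot decide whether the numbers pair the libraries. No log2 fold change of the 32 turned its sign in 576 values, and 225 were past the threshold no longer. Slc25a25, Gm11131, Gm41442, Gm17040 and Gm17041 kept their calls without each library. The cause of these shifts was not tested. With 2315985 to 2992084 counts a library, features under a few CPM, Cish among them, could not be tested.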

Other observations

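Summing the counts over each chain of features that overlap on opposite strands gave 34 changed loci of 5784 tested (0.588%, edgeR's quasi-likelihood test with Benjamini-Hochberg adjustment). Of these, 25 hold a feature that changed on its own and 9 do not. The 9 are named here after their values were seen. The locus of Vsig10, Gm10399 and Gm15727 was counted at 1.46, 1.47 and 1.97 CPM in control and 12.9, 10.3 and 9.62 CPM with carnitine, with no overlap (log2 fold change 2.69, SE 0.62, adjusted p = 0.0402). The locus of the homeobox genes Hoxb2 and Hoxb3 with their antisense features rose from 27, 42.6 and 25.3 CPM to 103, 66.8 and 72.6 CPM (log2 fold change 1.35, SE 0.30, adjusted p = 0.0364). Nrarp, which limits Notch signalling, rose with Gm38287 from 61.3, 59.7 and 60.5 CPM to 93.3, 174 and 122 CPM (log2 fold change 1.09, adjusted p = 0.0384). The control libraries of that locus lie within a narrow range. Lratd2 with 9930014A18Rik gave a log2 fold change of 1.27 (adjusted p = 0.0457).

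The other 5 loci fell. Sirt2, a NAD-dependent deacetylase, with Nfkbib and Ccer2, went from 38.7, 58.7 and 30.9 CPM in control to 15.9, 16.3 and 12.5 CPM with carnitine (log2 fold change -1.52, SE 0.34, adjusted p = 0.0364). Chchd2, a mitochondrial intermembrane space protein without a partner on the other strand, went from 75.2, 42.6 and 76.9 CPM to 35.3, 24 and 25.5 CPM (log2 fold change -1.21, adjusted p = 0.0469). Gapdh with Iffo1 went from 95.3, 95.9 and 106 CPM to 45.5, 39.8 and 59.6 CPM (log2 fold change -1.05, adjusted p = 0.0402). In these 3 loci no carnitine library reaches a control library. Amotl1 with Gm34263 gave -1.21 and the ribosomal protein gene Rps15 -1.08 (adjusted p = 0.0436 and 0.0446).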
